A study of Mus musculus with 8 samples.

Results

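The genes described here are those of the mitochondrial respiratory chain, read in blood monocytes (MCs) of control and diabetic mice. They were chosen by symbol alone. A row was taken when its symbol began with Nduf (complex I), Sdha, Sdhb, Sdhc or Sdhd (complex II), Uqcr (complex III), Cox4, Cox5, Cox6, Cox7 or Cox8 (complex IV), or Atp5 (complex V), and symbols with "-ps" or "-rs" were left out. This gave 91 genes of the 16486 rows in the table. Complex I holds 46 of them, complex II 8, complex III 8, complex IV 12 and complex V 17. Of the 91 genes, 79 name subunits and 12 name assembly factors (8 with symbols in Ndufaf and 4 in Sdhaf). All 91 had a mean of at least 1 on the deposited log2 scale, so none was lost to a filter on low values.

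The respiratory chain sits in the inner mitochondrial membrane. Complex I (NADH dehydrogenase) and complex II (succinate dehydrogenase) pass electrons to ubiquinone, complex III (the cytochrome bc1 complex) passes them to cytochrome c, and complex IV (cytochrome c oxidase) passes them to oxygen. Complexes I, III and IV pump protons, and complex V (ATP synthase) lets protons back to make ATP. Most subunits are encoded in the nucleus. A small set, among them the membrane core of complex I and the catalytic core of complex IV, is encoded in mitochondrial DNA, and complex II has nuclear subunits alone. Ly6Chigh MCs are the classical blood monocytes of the mouse and Ly6Clow MCs the non-classical, patrolling type.

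The 8 libraries came from male mice. Mice of all groups were fed chow, and control (CT) mice were wild type C57/BL6. T1DM mice were C57/BL6 mice given STZ (streptozotocin, which kills insulin-making beta cells). It was injected intraperitoneally at 50 mg/kg daily over 5 days, starting when the mice were 8 weeks old. The T2DM group was db/db, homozygous for a leptin receptor mutation, and the study names no background strain for it. Blood was taken at 20 to 22 weeks and pooled from 5 mice in each group, and CD11b+Ly6G- cells were sorted into Ly6Chigh and Ly6Clow. There were 2 CT libraries of each subset and 1 library of each subset from T1DM and from T2DM. The labels describe the paired CT libraries as duplicate sequencing of pooled RNA. P-values of the test in CT alone thus measure the spread between these libraries, which may be technical. In tests over all 8 libraries the spread also holds how the subset difference varies between the mouse groups. STZ treatment and the db/db genotype each stand for diabetes in a single pool of mice. Sequencing of CT used a NextSeq 500 and that of both diabetic groups a HiSeq 4000, and the sequencer cannot be told apart from the disease.

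Values are log2 expression levels of a gene in a library, as deposited. The study gives the same rounded number of reads for every sample, and the exact depth of each library is not known. Whether the values are per length is not stated, so levels are compared for the same gene across libraries and not between genes. The linear values of the Ly6Chigh columns summed to between 1020068 and 1090019, and those of the Ly6Clow columns to between 838696 and 878313. Scaling all columns to equal totals therefore lowered every Ly6Chigh minus Ly6Clow difference. In CT MCs the median of all genes moved from -0.09 to -0.37 with that scaling. In 143 genes, at least 2 CT libraries shared the gene's lowest CT value exactly and at least 2 diabetic libraries shared its lowest diabetic value. The CT value minus the diabetic value ranged in these genes from -0.66 to 6.37, with a median of 0.50. No exactly equal value occurred between a CT and a diabetic library. In these genes CT and diabetic columns thus differ by an offset that changes from gene to gene, and its origin is not given in the sources used here. None of the respiratory chain genes was among the genes with shared lowest values. Differences between subsets are taken within a mouse group, whereas differences between diabetic and CT levels could hold such an offset.

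The sorted subsets were checked against marker genes. All 10 classical MC markers were higher in the Ly6Chigh libraries over the mouse groups (adjusted p under 0.05). Of 10 non-classical MC markers 7 were lower and 1, Cx3cr1, was higher (0.60, adjusted p = 0.0235). All 10 B cell markers and all 8 NK cell markers were lower in Ly6Chigh, that is, higher in Ly6Clow. The summed level of the B cell markers was 8.03 to 8.96 (log2) in the Ly6Chigh libraries and 11.99 to 12.29 in the Ly6Clow libraries. For the NK cell markers these ranges were 4.58 to 6.70 and 7.20 to 9.67. For 10 T cell markers, of which 3 were called lower in Ly6Chigh, they were 5.03 to 5.53 and 7.72 to 8.02. Every difference between subsets below moved together with these lymphocyte markers, and their part in it was not tested. In bulk RNA, fewer cells of a type and less RNA per cell cannot be told apart.

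Respiratory chain genes were higher in Ly6Chigh than in Ly6Clow MCs in all 3 mouse groups. Over the 91 genes the median difference (log2) was 0.54 for CT, 0.70 for T1DM and 0.89 for T2DM, where the medians of all genes were -0.09, -0.04 and -0.03. The differences in T1DM and T2DM each rest on 1 library a subset. The CT median was 0.46 to 0.56 when 1 of the 4 CT libraries was left out. In CT, 76 of the 91 genes were higher in Ly6Chigh and 15 lower. The counts were 83 and 8 in T1DM, and again 83 and 8 in T2DM. In all 3 mouse groups 73 genes were higher and 5 lower, against 25.6% and 29.7% of all genes. With equal totals the medians were 0.26, 0.43 and 0.53. The distance from the median of all genes was 0.63, 0.73 and 0.92. Equal totals cannot move this distance, since that scaling shifts all genes of a column alike. With quantile normalization the distance was 0.45, 0.70 and 0.76.

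**Figure D1:**
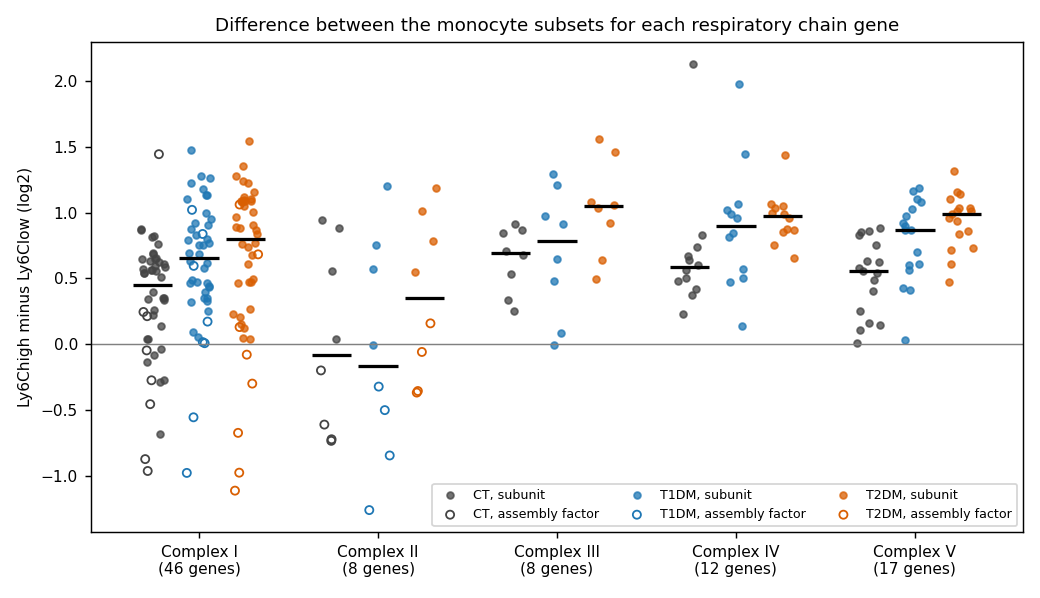
Each point is 1 respiratory chain gene, placed on the y axis by its Ly6Chigh minus Ly6Clow difference (log2) in CT (means of 2 libraries a subset), T1DM or T2DM (1 library a subset), and on the x axis by complex. Filled points are subunits, open points assembly factors and black bars medians. All 79 subunits lie above 0 in T2DM, and the open points of complex II lie below 0 in CT.

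In CT MCs, 26 of the 91 genes were called higher in Ly6Chigh at an adjusted p under 0.05 (limma, 2 libraries against 2) and none lower, where 11.4% of all genes were called higher and 9.06% lower. At the stricter rule of adjusted p under 0.01 and a change of more than 2-fold, 1 gene (Ndufaf7) was called higher and none lower, where the shares of all genes were 2.1% and 1.43%. At unadjusted p under 0.05, 48 genes were higher and 2 lower, where 18.9% of all genes were higher and 18.8% lower. At an adjusted p under 0.05 the counts were 9 higher and 2 lower with equal totals, where 1137 and 2723 of the 16486 genes were. With quantile normalization they were 16 and 1 (1585 and 1599 of all genes). Without the variance trend they were 11 and 0 (1028 and 1128), and centred on the median gene 39 and 0 (2586 and 1340). The CT calls rest on both libraries of each subset. Leaving out any of the 4 CT libraries leaves a single library on 1 side, too few to call any gene of the table. Such a fit cannot decide about the members. Fitting the subset difference over all 8 libraries with mouse group as a covariate called 56 genes higher and none lower at an adjusted p under 0.05, where 17% of all genes were higher and 16% lower. With equal totals this became 39 higher and 7 lower, where 1614 and 4909 of the 16486 genes were. Without the variance trend it became 52 higher and 1 lower (2231 and 2427 of all genes). At the stricter rule 5 were higher and none lower (5.37% and 6.76% of all genes), namely Cox6b2, Ndufaf7, Uqcr11, Sdhd and Uqcrq. The strict share of members was thus near that of all genes. The count fell to 2 without the T1DM libraries, to 2 without the T2DM libraries and to 1 with equal totals. Of all genes 719, 791 and 503 were called higher in these fits. All 26 genes called in CT were among the 56. In 58 genes all 4 Ly6Chigh libraries lay above all 4 Ly6Clow libraries and in 1 gene, Sdhaf4, they lay below, where this held for 16.4% and 16.3% of all genes.

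Complex I takes electrons from NADH, and 24 of its 46 genes were higher in Ly6Chigh over the mouse groups, with none lower. The shares of all genes in this test were 17% higher and 16% lower. Its 7 nuclear-encoded core subunits, which carry the flavin and iron-sulfur clusters, had a median difference of 0.31, and 2 of them (28.6%) were called. Its 31 other subunits, which surround that core, had a median of 0.71, and 21 (67.7%) were called. Ndufs8, an iron-sulfur core subunit, was at 4.97 and 5.23 in CT Ly6Chigh, 5.2 in T1DM and 5.55 in T2DM. Its Ly6Clow values were 4.56 and 4.35 (CT), 4.37 (T1DM) and 4.54 (T2DM). The subsets did not overlap, and Ndufs8 rose by 0.78 (SE 0.142, adjusted p = 0.00303). The flavoprotein subunit Ndufv1 showed 0.33 (SE 0.214, adjusted p = 0.271) and did not pass. Among the surrounding subunits the widest called differences were those of Ndufa2 (0.95, adjusted p = 0.0129), Ndufc2 (0.91, adjusted p = 0.00361) and Ndufb5 (0.90, adjusted p = 0.0047). Ndufab1, the mitochondrial acyl carrier protein, which also serves fatty acid synthesis, stood apart. It was at 4.27 and 4.48 in CT Ly6Chigh and at 4.98 and 5.14 in CT Ly6Clow, but at 5.29 and 4.53 in T2DM. Its subset difference was -0.68 in CT (adjusted p = 0.0548), 0.05 in T1DM and 0.76 in T2DM. Ndufa4, grouped here by its symbol although it is now counted as a subunit of complex IV, rose by 0.75 (SE 0.144, adjusted p = 0.00422).

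Complex II oxidises succinate in the TCA cycle. Of its 4 subunits 3 were higher in Ly6Chigh over the mouse groups (17% of all genes were), and the catalytic flavoprotein Sdha was not. Sdha was at 7.40 and 7.51 in CT Ly6Chigh and at 7.46 and 7.37 in CT Ly6Clow. It was at 7.40 and 7.41 in T1DM and at 7.58 and 7.03 in T2DM, and the subsets overlapped (0.15, SE 0.111, adjusted p = 0.326). The membrane anchor Sdhd was at 6.04 and 6.00 in CT Ly6Chigh, 6.17 in T1DM and 6.45 in T2DM. Its Ly6Clow values were 5.18 and 5.10 (CT), 4.97 (T1DM) and 5.26 (T2DM). Sdhd thus rose by 1.04 (SE 0.115, adjusted p = 0.000198) with no overlap. The other anchor, Sdhc, rose by 0.67 (SE 0.142, adjusted p = 0.00636). The iron-sulfur subunit Sdhb was at 5.57 and 5.44 in CT Ly6Chigh, 5.16 in T1DM and 6.06 in T2DM. In Ly6Clow it was at 4.59 and 4.53 (CT), 4.40 (T1DM) and 5.28 (T2DM). It rose by 0.86 (SE 0.119, adjusted p = 0.000705), although the T2DM Ly6Clow library lay above the T1DM Ly6Chigh library.

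All 8 complex III genes had a positive difference over the mouse groups, and 6 were called, where 17% of all genes were called higher. Uqcr11, a small subunit, was at 3.81 and 3.84 in CT Ly6Chigh, 4.05 in T1DM and 4.07 in T2DM, against 3.16 and 2.67, 2.76 and 3.03 in Ly6Clow. It rose by 1.04 (SE 0.200, adjusted p = 0.00407). Uqcrq, a small subunit on the ubiquinone-binding side, rose by 1.03 (SE 0.203, adjusted p = 0.00458), and the hinge protein Uqcrh by 0.94 (SE 0.105, adjusted p = 0.000214). The Rieske iron-sulfur protein Uqcrfs1 rose by 0.86 (adjusted p = 0.0012). The core proteins Uqcrc1 and Uqcrc2 rose by less, 0.51 (adjusted p = 0.0283) and 0.41 (adjusted p = 0.0164). Uqcrc1 showed no difference in T1DM, where it was at 5.51 in Ly6Chigh and 5.52 in Ly6Clow, whereas in CT it was at 6.28 and 6.31 in Ly6Chigh and at 5.43 and 5.74 in Ly6Clow. Uqcrb (0.52, adjusted p = 0.0728) and Uqcr10 (0.72, adjusted p = 0.0746) did not pass.

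All 12 complex IV genes had a positive difference, and 10 were called, where 17% of all genes were called higher. Cox4i1, the common form of regulatory subunit 4, was at 6.99 and 7.09 in CT Ly6Chigh, 7.12 in T1DM and 7.39 in T2DM. In Ly6Clow it was at 6.14 and 6.29, 6.10 and 6.39, and it rose by 0.92 (SE 0.094, adjusted p = 0.00013). Where the chain has tissue isoforms, the table held the common forms Cox4i1, Cox6a1, Cox6b1, Cox7a2 and Cox8a. Cox4i2, Cox6a2, Cox7a1, Cox8b, Cox8c and Ndufa4l2 were not analysed here. Cox6b2 (chr7:4751792-4753094, minus strand, mm10), known as the testis form of subunit 6b, was an exception. It was low throughout, at 2.69 and 2.79 in CT Ly6Chigh, 2.76 in T1DM and 2.48 in T2DM, against 0.62 and 0.60, 0.78 and 1.05 in Ly6Clow. Cox6b2 had the widest difference of all 91 genes over the mouse groups, 1.92 (SE 0.279, adjusted p = 0.000902), while Cox6b1 rose by 0.71 (SE 0.121, adjusted p = 0.00218). Cox7a2l, which joins complexes III and IV into supercomplexes, rose by 0.73 (SE 0.126, adjusted p = 0.00238). Cox7a2 (0.50, adjusted p = 0.0829) and Cox5a (0.48, adjusted p = 0.0513) did not pass.

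All 17 complex V genes had a positive difference, and 13 were called, where 17% of all genes were called higher. Atp5c1, the rotating gamma shaft of the catalytic head, was at 7.35 and 7.38 in CT Ly6Chigh, 7.41 in T1DM and 7.74 in T2DM, against 6.51 and 6.56, 6.55 and 6.42 in Ly6Clow. It rose by 0.96 (SE 0.106, adjusted p = 0.000197). The catalytic beta subunit Atp5b overlapped between subsets, at 8.97 and 9.49 in CT Ly6Chigh and 9.0 and 9.15 in CT Ly6Clow (0.26, SE 0.142, adjusted p = 0.191). The alpha subunit Atp5a1 rose by 0.47 (SE 0.124, adjusted p = 0.0184). In the stalk that holds the head still, the d subunit Atp5h rose by 0.98 (SE 0.109, adjusted p = 0.000202), the b subunit Atp5f1 by 0.69 (adjusted p = 0.00147) and the OSCP subunit Atp5o by 0.81 (adjusted p = 0.00205). The 3 genes Atp5g1, Atp5g2 and Atp5g3 encode the same mature c subunit of the proton-driven ring. Atp5g3 rose by 0.91 (SE 0.119, adjusted p = 0.000502), while Atp5g1 (0.44, adjusted p = 0.181) and Atp5g2 (0.27, adjusted p = 0.293) did not pass. Atpif1, the inhibitor of ATP synthase, which the symbol rule does not take, rose by 0.72 (SE 0.159, adjusted p = 0.0082).

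**Figure D2:**
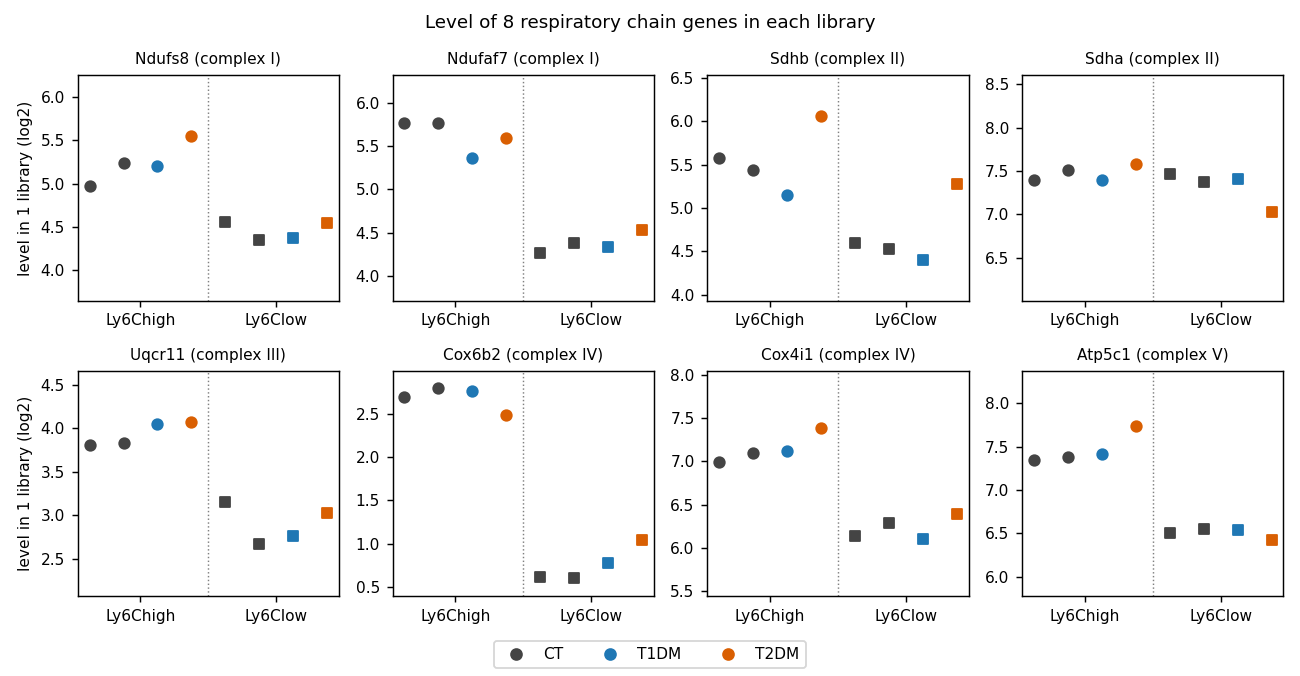
The level (log2) of 8 respiratory chain genes is plotted for each of the 8 libraries, with Ly6Chigh libraries as circles on the left and Ly6Clow libraries as squares on the right of each panel, coloured by mouse group. Panels share a height of the same log2 range but not the same centre. The subsets are apart in Ndufs8, Ndufaf7, Uqcr11, Cox6b2, Cox4i1 and Atp5c1, overlap in Sdha, and in Sdhb both T2DM libraries are the highest of their subset.

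A list of 17 core subunits, made of the 7 of complex I, the 4 of complex II, Uqcrc1, Uqcrc2 and Uqcrfs1 of complex III and Atp5a1, Atp5b and Atp5c1 of complex V, had a median difference of 0.47, and 10 were called. For the other 62 subunits the median was 0.72, and 45 were called. The shares called were 58.8% and 72.6%, where 17% of all genes were called higher. Within each mouse group the core median was also the smaller, at 0.35 against 0.57 in CT, 0.49 against 0.83 in T1DM and 0.71 against 0.99 in T2DM. The difference between these lists was not tested.

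The 12 assembly factors, which help to build complexes I and II but are not part of them, did not follow the subunits. Their median difference was -0.37 (CT), -0.16 (T1DM) and -0.19 (T2DM), against 0.56, 0.77 and 0.96 for the 79 subunits. With quantile normalization the T2DM median of the factors was 0.20, and the other alternatives kept it below 0. In all 3 mouse groups 2 factors were higher and 5 lower in Ly6Chigh, and 71 subunits were higher. The 1 factor called was Ndufaf7 (chr17:78937136-78948052, plus strand, mm10), a methyltransferase that acts in complex I assembly. It was at 5.77 in both CT Ly6Chigh libraries, 5.36 in T1DM and 5.59 in T2DM, against 4.26 and 4.39, 4.34 and 4.53 in Ly6Clow. It rose by 1.24 (SE 0.136, adjusted p = 0.000187), and in CT alone by 1.45 (SE 0.109, adjusted p = 0.00868). The complex II factors Sdhaf3 (-0.70, adjusted p = 0.138), Sdhaf4 (-0.61, adjusted p = 0.13), Sdhaf1 (-0.45, adjusted p = 0.201) and Sdhaf2 (-0.27, adjusted p = 0.171) did not pass. Of 36 assembly factors of the chain with other symbols, 3 (8.33%) were called higher over the mouse groups and none lower. This was below the 17% of all genes called higher, where 16% were lower, and the median of the 36 was 0.03. The 3 were Cox19 (1.41), Coa4 (1.04) and Surf1 (0.50), which serve complex IV.

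The subunits encoded in mitochondrial DNA are read by a separate polymerase. The table held 12 of these 13 genes. In CT MCs 11 of the 12 were lower in Ly6Chigh, unlike most nuclear subunits. The exception was mt-Atp6 of complex V, at 9.79 and 9.31 in CT Ly6Chigh and 8.98 and 8.91 in CT Ly6Clow (0.61, adjusted p = 0.103). The median difference of the 12 was -0.43, and 7 of 12 were called lower in Ly6Chigh at an adjusted p under 0.05 with none higher. The complex III subunit mt-Cytb was at 10.20 and 10.24 in CT Ly6Chigh and at 10.73 and 10.72 in CT Ly6Clow (-0.50, adjusted p = 0.0058). The complex I subunit mt-Nd5 showed -0.50 (adjusted p = 0.0058), and the catalytic complex IV subunit mt-Co1 -0.23 (adjusted p = 0.00751). In T1DM the median was 0.05 and in T2DM 0.30, where mt-Cytb was at 10.88 in Ly6Chigh and 10.56 in Ly6Clow. The sign in the diabetic libraries depends on the scaling. It was -0.22 in T1DM and -0.06 in T2DM with equal totals, and -0.29 and -0.21 with quantile normalization, whereas the CT median was below 0 in every scaling run. Over the mouse groups 1 of 12 was called higher (mt-Atp6, 0.47, adjusted p = 0.013) and none lower. Of all genes 17% were higher and 16% lower over the mouse groups.

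**Figure D3:**
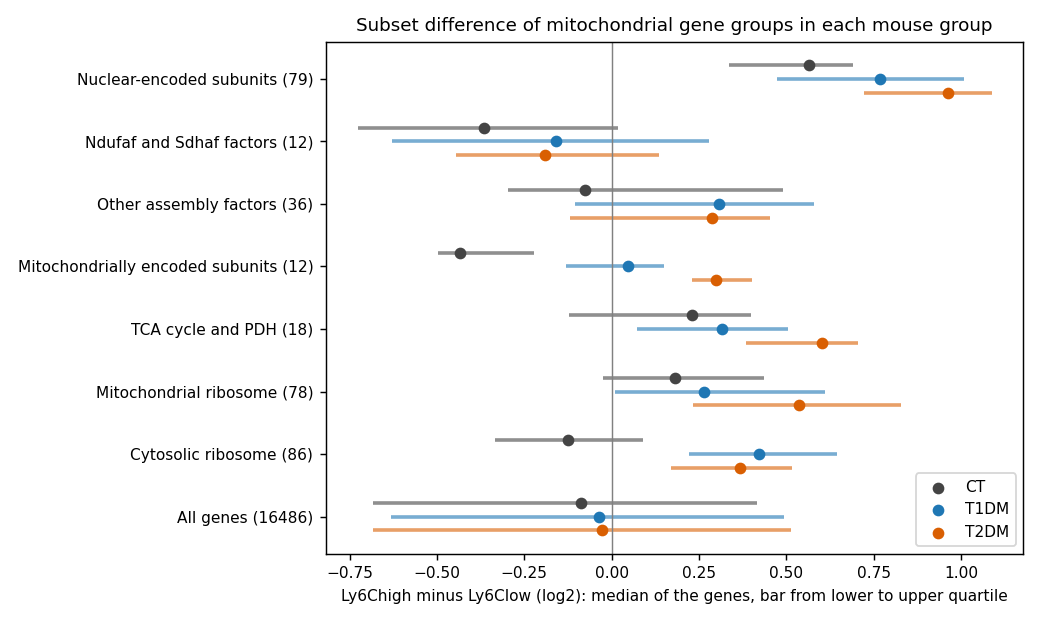
For each gene group and mouse group the point is the median Ly6Chigh minus Ly6Clow difference (log2) of its genes and the bar runs from the lower to the upper quartile, with the number of genes in brackets. The nuclear-encoded subunits lie to the right in all 3 mouse groups, at 0.56, 0.77 and 0.96, and the mitochondrially encoded subunits lie at -0.43 in CT, 0.05 in T1DM and 0.30 in T2DM.

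Cytochrome c (Cycs), which carries electrons from complex III to complex IV, rose by 0.58 (SE 0.120, adjusted p = 0.0059). Cyc1, the cytochrome c1 of complex III, showed 0.35 (adjusted p = 0.0853). Among 18 genes of the TCA cycle and pyruvate dehydrogenase 7 (38.9%) were higher and 1 lower over the mouse groups, with a median of 0.34, where 17% of all genes were higher and 16% lower. Among 78 genes of the mitochondrial ribosome 15 (19.2%, near the share of all genes) were higher and none lower, with a median of 0.29. Of 8 genes that feed electrons to ubiquinone by other routes 2 were higher. Of 86 cytosolic ribosomal genes 19 (22.1%) were higher and 2 lower. In CT alone 10 of these 86 were higher and 25 lower, where 11.4% of all genes were higher and 9.06% lower. Their median subset difference was -0.13 for CT, 0.42 for T1DM and 0.37 for T2DM, so a lower CT and a higher diabetic median was not particular to the mitochondrially encoded genes. The CT median of the ribosomal genes was 0.0017 when centred on the median gene and below 0 in the other scalings. Whether the subset difference changed with diabetes was also tested in these lists, though diabetes cannot be told apart from the sequencer. At unadjusted p under 0.05, 62 of the 86 and 9 of the 12 mitochondrially encoded genes had a more positive difference and none a more negative. Of all genes 4.56% had a more positive and 4.97% a more negative difference. No gene of either list passed an adjusted p under 0.05. Of 16 genes of mitochondrial biogenesis 2 were higher and 2 lower. Ppargc1a, a coactivator of the respiratory genes, was at 0.72 and 0.02 in CT Ly6Chigh and 2.13 and 2.40 in CT Ly6Clow, and fell by 1.74 over the mouse groups (adjusted p = 0.00286). Tfb1m, a methyltransferase of mitochondrial ribosomal RNA, fell by 0.95 (adjusted p = 0.00273). Ppargc1b, a relative of Ppargc1a (1.08, adjusted p = 0.0432) and Polg, the mitochondrial DNA polymerase (0.68, adjusted p = 0.0398), rose. Nrf1, Gabpa and Yy1, whose proteins bind respiratory gene promoters, showed -0.01, 0.16 and -0.01 and did not pass.

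Promoters of the members were searched for the short binding letters of these factors, and 3 are shown as examples. Of the 91 genes 77 were matched in the RefSeq promoter table (GRCm38.p6, 250 bases before to 50 after each start). The letters GCGCATGC (NRF1), CCGGAAGT (ETS factors such as GABP) and AAGATGGCG (YY1) were searched on both strands. GCGCATGC was in 12 of the 77 (15.6%), against 5.3% of the genes of the expression table with a promoter. CCGGAAGT was in 5 (6.5%, against 7.9%), AAGATGGCG in 8 (10.4%, against 3.1%) and any of these in 24 (31.2%, against 15.2%). Overlapping matches were counted once for a gene. The stretches printed lie before both the RefSeq and the GENCODE start and are written 5′ to 3′ on the gene's strand. Capitals mark a match or its reverse complement, which is a description of letters and not of binding.
Uqcrh, chr4:116075072-116075170, minus strand: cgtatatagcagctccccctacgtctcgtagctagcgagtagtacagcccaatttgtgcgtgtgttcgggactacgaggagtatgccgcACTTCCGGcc
Uqcr11, chr10:80406831-80406921, minus strand: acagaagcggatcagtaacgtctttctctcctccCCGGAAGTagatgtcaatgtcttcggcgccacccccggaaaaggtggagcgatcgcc
Ndufa11, chr17:56717662-56717761, plus strand: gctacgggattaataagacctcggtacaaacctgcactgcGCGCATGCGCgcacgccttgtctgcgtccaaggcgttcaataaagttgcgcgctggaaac
Uqcrh and Uqcr11 carry the ETS letters and were called higher in Ly6Chigh, as were 61.5% of the members. Of the other members with ETS letters, Atp5h and Cox8a were called higher, while the Ndufs3 libraries overlapped between subsets. Uqcr11 also has the NRF1 letters across its RefSeq start, outside the stretch printed. Ndufa11 carries overlapping NRF1 letters, and its difference of 0.48 did not pass (adjusted p = 0.0972). Whether calls go with any of these letters was not tested.

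T2DM was compared with T1DM over both subsets, with 2 libraries against 2 on the same sequencer. No respiratory chain gene passed the stricter rule (0.588% of all genes did) and 1 passed an adjusted p under 0.05 (2% of all genes). This was Sdhb (chr4:140961203-140979193, plus strand, mm10), which was higher in T2DM by 0.89 (SE 0.169, adjusted p = 0.0372), from 5.16 to 6.06 in Ly6Chigh and from 4.40 to 5.28 in Ly6Clow. Without any 1 of the CT libraries, which share in the estimate of spread, its adjusted p was 0.0655 to 0.0733, and over all 11 alternatives it was 0.0299 to 0.119. At unadjusted p under 0.05, 8 genes (8.79%) were higher in T2DM and none lower, where 6.56% of all genes were higher and 7.78% lower, so the share of higher genes was near that of all genes. Without the variance trend 3 were higher and none lower. Next to Sdhb came Ndufs6, an accessory complex I subunit (0.84, SE 0.276, adjusted p = 0.205). In the same comparison all 8 NK cell markers, 4 of 8 platelet markers and 5 of 7 erythroid markers were lower in T2DM, and 5 of 10 classical MC markers were higher. Their part in the Sdhb difference was not tested. Differences beyond 2-fold between the T2DM and the T1DM library were seen in 1 gene in Ly6Chigh, Sdhaf1 (1.13), and in 3 in Ly6Clow, Sdhaf3 (-1.36), Ndufaf6 (1.12) and Ndufa5 (1.04), where 19.3% and 15.3% of all genes passed.

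Each diabetic library was then set against the 2 CT libraries of its subset. These values hold the change of sequencer, and whether the gene-wise offset seen in other genes is also in the members was not tested. In Ly6Chigh the median over the 91 genes was 0.25 above the CT mean in T2DM and 0.07 above it in T1DM. In Ly6Clow it was 0.09 below in T2DM and 0.16 below in T1DM. The medians of all genes were between -0.01 and 0.02 in these 4 comparisons. Against either CT library alone, the members' median in Ly6Chigh was 0.21 to 0.25 in T2DM and 0.03 to 0.06 in T1DM. In Ly6Clow it was -0.14 to -0.04 in T2DM and -0.15 to -0.13 in T1DM. In T2DM Ly6Chigh, 68 genes lay above both CT libraries and 7 below both (38.4% and 35.5% of all genes). In T1DM Ly6Chigh these counts were 37 and 23 (36.3% and 33.5%). In Ly6Clow 18 lay above and 42 below in T2DM (34.5% and 37.0%), and 9 above and 48 below in T1DM (35.1% and 34.9%). Both at once, above CT in Ly6Chigh and below CT in Ly6Clow, held in T2DM for 34 genes and 14.7% of all genes. Cell type markers moved in the same libraries. Over both subsets, 5 of 10 classical MC markers were called higher and 5 of 8 NK cell markers lower in T2DM than in CT (adjusted p under 0.05). In T2DM Ly6Chigh all 10 non-classical MC markers were below the CT mean, with a median of -1.36, and in T1DM Ly6Chigh 9 of 10 were, with a median of -0.64. Their part in the shifts of the respiratory chain genes was not tested. The shifts were small for single genes. None passed 2-fold in T2DM Ly6Chigh (13.8% of all genes), T2DM Ly6Clow (10.8%) or T1DM Ly6Chigh (10.1%), and 1, Ndufc1 (-1.07), did in T1DM Ly6Clow (8.81%).

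**Figure D4:**
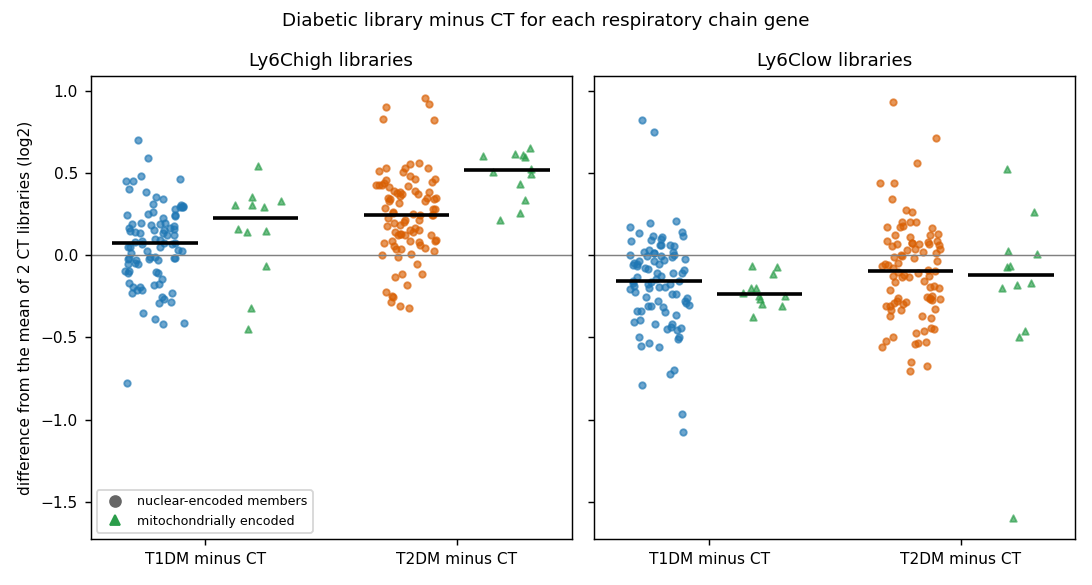
Each point is 1 gene, placed by how far its level in a diabetic library lies from the CT mean of the same subset (log2, diabetic minus CT), with nuclear-encoded members as circles, mitochondrially encoded genes as triangles and medians as black bars. In Ly6Chigh the T2DM medians are 0.25 and 0.52, and in Ly6Clow all 4 medians are below 0.

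Members are ranked here only if their mean over all libraries was at least 5. Some below that limit rose more in T2DM Ly6Chigh, such as Ndufab1 (0.92) and Uqcrq (0.82). Among the ranked members, the widest rises in T2DM Ly6Chigh were those of Atp5g1 (0.96), Sdhb (0.55), Atp5b (0.46), Atp5a1 (0.44) and Sdhd (0.43). Atp5g1 was at 6.51 there and at 5.28 and 5.83 in the CT libraries, which themselves lay far apart. In T1DM Ly6Chigh the widest rise was that of Cox7a2l (0.40) and the widest fall that of Uqcrc1, whose difference was -0.78. In T2DM Ly6Clow Sdhb stood 0.71 above CT, and Ndufa9 (-0.50), Ndufa13 (-0.47), Ndufs4 (-0.45) and Sdha (-0.38) stood below. In T1DM Ly6Clow the widest differences were those of Cox6c (-0.50) and Cox5b (-0.46). Sdhb was thus above both CT libraries in both T2DM libraries and below both in both T1DM libraries. The 12 mitochondrially encoded genes had medians of 0.52 in T2DM and 0.23 in T1DM Ly6Chigh, and of -0.12 and -0.24 in Ly6Clow, and these 4 signs held in all scalings run.

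Tested over both subsets (limma), no respiratory chain gene passed either rule for T1DM against CT, where 0% of all genes passed the stricter and 0.0182% the other rule. For T2DM against CT none passed either rule, where 0.297% and 0.801% of all genes did. At unadjusted p under 0.05 there was 1 lower gene for T1DM (Uqcrc1, -0.42, adjusted p = 1) and 1 higher gene for T2DM (Sdhb, 0.63, adjusted p = 0.117), also without the variance trend.

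Whether the subset difference itself changed with diabetes was tested by comparing the Ly6Chigh minus Ly6Clow difference of the diabetic libraries with that of CT. The sequencer changed with the disease, so this test cannot tell a change with diabetes from a change with sequencer. No respiratory chain gene passed either rule, where 0% of all genes passed the stricter and 0.0364% the other rule. At unadjusted p under 0.05, 4.56% of all genes had a more positive and 4.97% a more negative difference in the diabetic libraries. Among the members 12 (13.2%) had a more positive difference and none a more negative (10 and none without the variance trend). These were Ndufc1 (1.21), Ndufab1 (1.09), Ndufaf5 (1.03), Ndufv1 (0.94), Ndufa3 (0.73), Ndufb5 (0.72), Ndufa13 (0.69), Cox6c (0.69), Ndufc2 (0.63), Atp5e (0.57), Cox6a1 (0.53) and Cox7a2l (0.49), with adjusted p from 0.376 to 0.511. As a description, 73 of the 91 genes had a more positive difference in T2DM than in CT and 65 in T1DM. This held for 51.8% and 51.3% of all genes. These counts include genes whose CT difference was below 0, such as Ndufab1 (-0.68) and Ndufaf5 (-0.87). In the same test 9 of 10 non-classical MC markers had a more negative difference in the diabetic libraries at unadjusted p under 0.05 (median -1.20), and 3 of 10 classical MC markers had a more positive and 1 a more negative one. Their part in the more positive differences of the members was not tested. Differences above 1 were seen in 36 genes in T2DM and 22 in T1DM (11.3% and 11% of all genes). A difference below -1 was seen in 1 gene in each, Ndufaf6 in T2DM and Sdhaf3 in T1DM (17.8% and 16.8% of all genes).

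Some members share sequence with other genes, so their reads could have been split. In the GENCODE M21 transcripts, 23 members shared at least 10% of their 31-base words with another gene. Ndufb4c shared all of them, mainly with Ndufb4, and Atp5g2 shared 40.2% and Uqcrb 32.4%. Uqcr11 shared 12.1% with Gm16418 and Gm11628, and Cox6b2, Sdhb, Sdhd and Uqcrq shared none. The 23 genes had a median subset difference of 0.58 in CT, 0.79 in T1DM and 0.96 in T2DM, and the other 68 had 0.52, 0.69 and 0.87. Exons of Sdhaf1 (69.6%), Ndufaf2 (65.6%) and Ndufb6 (39.0%) overlapped a gene on the other strand, and without strand these reads cannot be told apart.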

How the data were processed

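RNA of sorted blood MCs was measured by bulk RNA-seq in 8 libraries, grouped by GEO's labels. The values are log2 expression deposited by the authors, who quantified reads with Kallisto 0.45 and, under R 3.6.1, summarised them per gene with tximport (version 1.12.3), with mm10 named in the submitters' processing notes. Their normalization and any gene-wise adjustment are not given in the sources used here. All 16486 rows were fitted with limma 3.58.1 (R 4.3.3, eBayes with trend, Benjamini-Hochberg adjustment), for CT alone by subset and for all libraries by subset and mouse group. Calls used an adjusted p under 0.01 with a log2 change beyond 1, as the study's criteria, and an adjusted p under 0.05. Single diabetic libraries were compared without a test. Named genes were the widest called members of each complex, the widest single-library differences, isoform families, core subunits and fixed lists. The members and lists were chosen with earlier results of these data known. The fit was checked on simulated data. No column of per-sample values was left unused (0 columns). Other libraries of the study were not analysed here. Promoters came from RefSeq and gene models from GENCODE M21. Some items are not reported here.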

Additional observations from a re-analysis of the deposited data

Results flagged for a closer look

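Median differences of several gene groups from CT had opposite signs in Ly6Chigh and Ly6Clow. These differences between subsets were not tested as medians, and each diabetic value is 1 library. For all 91 respiratory chain genes the median of T1DM minus CT was 0.071 in Ly6Chigh and -0.155 in Ly6Clow, and that of T2DM minus CT was 0.246 and -0.095. In complex I the medians were 0.059 and -0.212 in T1DM and 0.282 and -0.041 in T2DM. In complex IV they were 0.084 and -0.121 in T1DM and 0.269 and -0.034 in T2DM. In complex V they were 0.136 and -0.145 in T1DM and 0.244 and -0.187 in T2DM. Complexes II and III showed opposite signs in T2DM, at 0.191 and -0.097 for complex II and at 0.109 and -0.117 for complex III. The mitochondrially encoded genes had medians of 0.225 and -0.238 in T1DM and of 0.516 and -0.119 in T2DM.

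The median subset difference of the mitochondrially encoded genes was -0.434 in CT, 0.046 in T1DM and 0.298 in T2DM. This change of sign was not tested as a median. With equal totals and with quantile normalization the diabetic medians were below 0 as well.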

How the results depend on the processing

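Alternatives moved the number of genes past the stricter rule and the size of the medians, and no median over the 91 genes changed sign. The T2DM subset median of the 12 assembly factors changed sign with quantile normalization (0.20), and the diabetic subset medians of the mitochondrially encoded genes did with quantile normalization and equal totals. For these moves the cause was not tested, except that leaving out libraries leaves fewer samples. In CT, 1 gene was called higher in Ly6Chigh. The count was 0 for subunits only, without the variance trend, with the replicate block and with equal totals. It was 2 with the filter on low values, with quantile normalization and when centred on the median gene, and 26 at adjusted p under 0.05. Without the variance trend and with the replicate block no gene of the whole table passed the stricter rule. Of all genes 346 were called higher in CT, and 207 with equal totals. The filter on low values gave 619 of 12527 genes, quantile normalization 349 and centring 656. At adjusted p under 0.05, 1882 of all genes were called higher. Leaving out 1 CT library leaves too few libraries to call any gene. Over the mouse groups 5 were called, and 2 without the T1DM libraries, 2 without the T2DM libraries and 3 adding 1 before log2. The count was 1 with equal totals, 18 when centred and 56 at adjusted p under 0.05. In the same order 886, 719, 791, 847, 503, 1127 and 2797 of the 16486 genes were called higher. T2DM against T1DM gave 0, and 1 at adjusted p under 0.05 (0.588% and 2% of all genes).

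The CT median of 0.54 became 0.504 adding 1, 0.473 with quantile normalization, 0.256 with equal totals, 0.668 when centred, 0.564 for subunits only and 0.455 to 0.557 leaving out 1 CT library. In the same order the T1DM median became 0.668, 0.745, 0.432, 0.80 and 0.769, and the T2DM median 0.867, 0.814, 0.528, 0.992 and 0.962. T1DM minus CT in Ly6Chigh became 0.051 (quantile), 0.023 (equal totals), 0.045 (centred), 0.087 (subunits only) and 0.034 to 0.065 leaving out 1 CT library. T2DM minus CT in Ly6Chigh became 0.201, 0.154 and 0.225 in the first 3 of these and 0.207 to 0.245 leaving out 1. In Ly6Clow, T1DM minus CT became -0.191 (quantile), -0.221 (equal totals) and -0.151 to -0.126 leaving out 1. T2DM minus CT in Ly6Clow became -0.121, -0.111, -0.110 (subunits only) and -0.143 to -0.038. T2DM minus T1DM became 0.169, 0.150 and 0.218 in Ly6Chigh and 0.062, 0.095 and 0.064 in Ly6Clow, with quantile normalization, equal totals and subunits only. Genes with all Ly6Chigh libraries above all Ly6Clow numbered 38 with equal totals. Those below numbered 6 with equal totals, 0 for subunits only, 2 without the T1DM libraries, 4 without the T2DM libraries and 2 leaving out any 1 CT library. Equal totals lower the subset difference of every gene, and fewer libraries separate more easily in any gene. Shares of all genes are not given for these alternatives, so these counts are not a result about the members.

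Same-numbered CT libraries did not deviate together (correlation 0.009 across genes), so the numbers pair nothing known. With the replicate block, 6 genes were called in CT at adjusted p under 0.05 and 55 over the mouse groups. Of all genes 894 and 2605 were called higher in these fits. Precision is limited by 1 library for each diabetic subset, and the exact depth of each library is not known.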
